A study of Mus musculus with 6 samples.

Results

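The genes described here mark visceral endoderm, gut endoderm and embryonic epithelium. They are 37 genes chosen by symbol: proteins that the visceral yolk sac secretes, the machinery by which it takes up protein, transcription factors and a signal of the endoderm, and genes of the gut lining and the surface ectoderm. The platform annotation gave 35 of them at least 1 probe set of their own, 63 probe sets in all, out of 12393 genes measured in the series. Trf and Grhl3 had no probe set under their symbol alone and were not analysed here.

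RNA was taken from the presomitic mesoderm level of C57BL/6 mouse embryos at 9.5 days post coitum and hybridised to Affymetrix MOE430A arrays. There were 3 pools from wild-type embryos and 3 pools from embryos homozygous for the tm1Rbe allele of Dll3, also written Dll3 neo, on the same background per the labels. The series design calls the pools biological replicates. The sources used here do not give the number of embryos in each. Per the labels, the tissue behind the youngest somite was taken whole, with cells of every germ layer, after the allantois had been cleared away, so gut and surface epithelium belonged to every sample. Each deposited value relates a pool to the probe set median of the 6 pools and holds no absolute level. The values therefore cannot show whether a marker was present, and fewer cells of a type cannot be told apart from less RNA per cell.

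Visceral endoderm is the absorptive and secretory layer of the yolk sac, which supplies the embryo with lipoproteins and serum proteins before the liver takes over. The gut tube forms largely from definitive endoderm and depends on the FOXA and HNF4A transcription factors, while its lining and the surface ectoderm share claudins, EPCAM and simple keratins. Basal keratins, TP63 and grainyhead-like factors mark the ectoderm that becomes skin.

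Values are mean log2 ratios over all probe sets of a gene, and differences are mutant minus wild type. The targeted gene Dll3 had a wild-type mean of 0.75 ± 0.23 (SD, n = 3) and a mutant mean of -1.01 ± 0.10 (SD, n = 3), a log2 difference of -1.76 (SE 0.13, limma adjusted p = 0.001325), without overlap of the genotypes. It was the 1 gene of 12393 that passed the threshold of 0.05, or 0.00807%. Wild-type pool 3 and mutant pool 1 stood apart from the other pools. Of 173 genes whose highest pool lay at least 0.5 above the next, 138 had it in wild-type pool 3 (1.11% of all genes) and 33 in mutant pool 1 (0.266%). All 20 heart muscle markers measured were highest in mutant pool 1, with a median gap of 1.60 to the next pool. The 14 presomitic mesoderm and tail bud markers measured had wild-type pool medians of 0.12, -0.03 and 0.26 against mutant pool medians of -0.14, -0.15 and -0.04.

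None of the 35 endoderm and epithelium genes passed the test between genotypes in limma, where the adjusted p of each was 1.0, and none of their 63 probe sets passed when probe sets were tested singly. The number at an unadjusted p under 0.05 was 1 of 35, against 1.28% of all genes. By sign, 23 of 35 were higher and 12 lower in the mutant (65.7% higher, against 51.1% of all genes), with a median log2 difference of 0.05 against 0.0028 over all genes. The 95% intervals held 0 for 34 of the 35. Their outermost bounds were -0.66 and 0.63, so differences beyond 1.58-fold lay outside every one of these intervals. The median SE was 0.12, the same as over all genes.

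**Figure D1:**
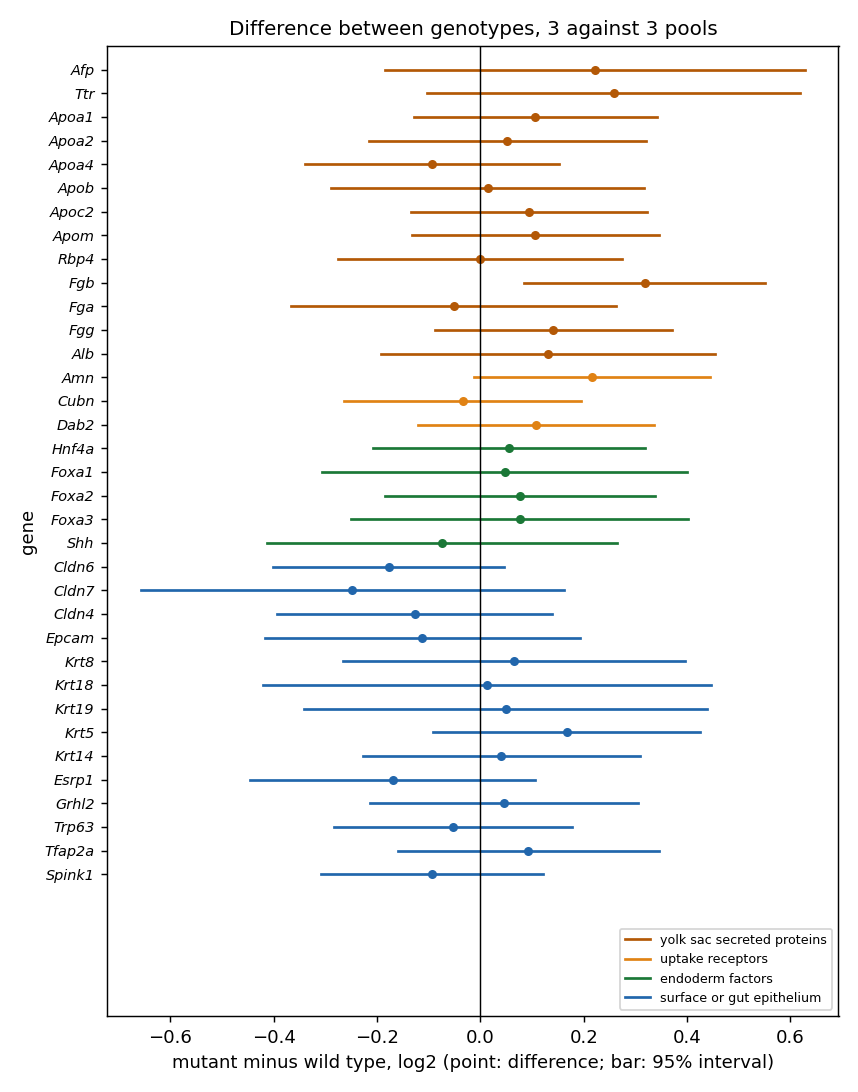
Log2 difference between genotypes, mutant minus wild type, for the 35 genes measured, with colours for the 4 groups; points are the fitted differences and bars their 95% intervals from limma with 3 against 3 pools. The interval of Fgb, from 0.08 to 0.55, is the 1 that lies off 0.

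The secreted proteins of the yolk sac leaned to higher mutant values. Of 13 measured, 10 were higher and 3 lower by sign. Their median log2 difference was 0.11, and 0 passed the test. The median of these genes was 0.06 in wild-type pool 1, -0.01 in pool 2 and -0.24 in pool 3, against 0.01, 0.0014 and 0.02 in the mutant pools. Wild-type pool 3 was low, and the other 5 pools lay close together. Wild-type pool 3 was the lowest pool for 11 of the 13, all except Apoa4 and Fgb, against 32.6% of all genes. This was not particular to the secreted proteins. The same pool was lowest for 12 of 20 heart muscle markers, 13 of 26 gut endoderm and notochord markers and 6 of 11 trophoblast and placenta markers. It was lowest for 2 of 16 primitive blood markers and 0 of 14 presomitic mesoderm and tail bud markers. Without that pool the median difference was 0.03. Leaving out wild-type pool 1 gave 0.17, and leaving out mutant pool 1 gave 0.06.

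**Figure D2:**
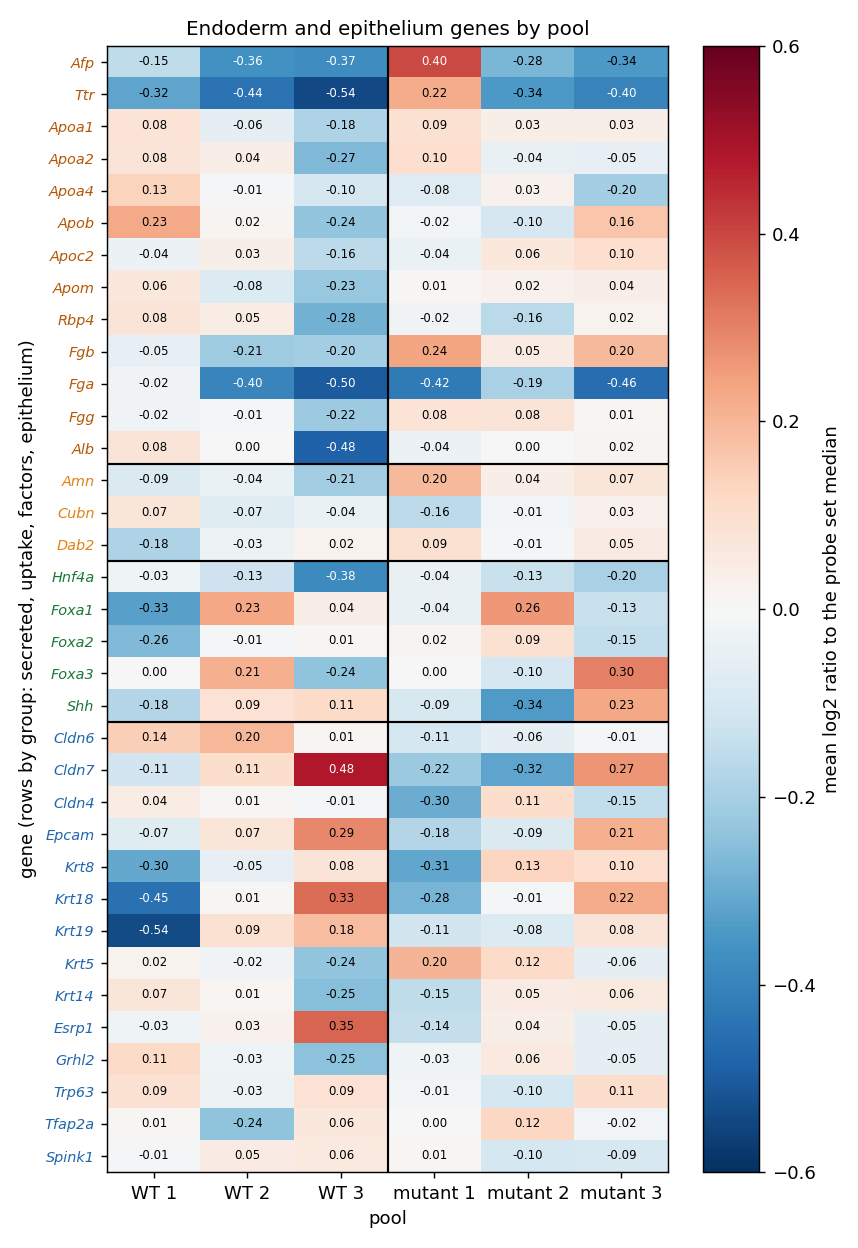
Mean log2 ratio to the probe set median for each of the 35 genes (rows, names coloured by group) in each of the 6 pools (columns). Red is above and blue below the median; Afp and Ttr are red in mutant pool 1 alone, at 0.40 and 0.22, and most secreted protein genes are blue in wild-type pool 3.

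Afp and Ttr carried the clearest single-pool signal among these genes. Afp encodes alpha-fetoprotein, the main serum protein of the yolk sac and fetal liver, and Ttr encodes transthyretin, a carrier of thyroid hormone and of the retinol-binding protein. Afp stood at -0.15, -0.36 and -0.37 in the wild-type pools and at 0.40, -0.28 and -0.34 in the mutant pools. Ttr stood at -0.32, -0.44 and -0.54 in the wild type and at 0.22, -0.34 and -0.40 in the mutant. For both genes mutant pool 1 was high and the other mutant pools lay among the wild-type pools. The gap from mutant pool 1 to the next pool was 0.55 for Afp and 0.54 for Ttr, or 1.46-fold and 1.45-fold, just past the bound of 0.5. On the high side the next largest gaps were 0.31 for Esrp1 and 0.21 for Cldn7, both in wild-type pool 3. On the low side the largest were 0.45 for Alb in wild-type pool 3 and 0.43 for Krt19 in wild-type pool 1. So 2 of 35 genes stood out in 1 pool by this bound, both in mutant pool 1, against 1.4% of all genes for any pool. None stood out as low in 1 pool, against 0.783% of all genes. The log2 difference between genotypes was 0.22 (SE 0.18) for Afp and 0.26 (SE 0.16) for Ttr, and without mutant pool 1 it was -0.01 and 0.06.

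The excess in mutant pool 1 was uneven between probe sets of the same gene. Afp probe set 1416645_a_at gave deposited ratios of 0.701, 0.693 and 0.719 for the wild type and of 2.48, 0.669 and 0.672 for the mutant. Mutant pool 1 was high and the other 5 pools lay together below 1. For 1416646_at the ratio in mutant pool 1 was 1.71 and the next pool had 1.14. For 1436880_at and 1436881_x_at wild-type pool 1 was the highest, so 3 of the 5 Afp probe sets had their highest value in mutant pool 1. Ttr behaved likewise: 1454608_x_at gave 1.79 in mutant pool 1 against 0.758 in the next pool, 1455913_x_at gave 0.887 against 0.664, and 1451580_a_at gave 0.998 against a highest value of 1.08 in wild-type pool 1. Of these 8 probe sets 5 had a median below 1. The file appears to divide by a floor in place of the median there, which marks a low reading, so no fold is given for them singly. Such probe sets made up 7 of the 63 here, in Afp, Ttr, Fga and Hnf4a (11.1%, against 7.25% of all probe sets). Without them neither gene reached the bound, nor did either with quantile normalization.

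**Figure D3:**
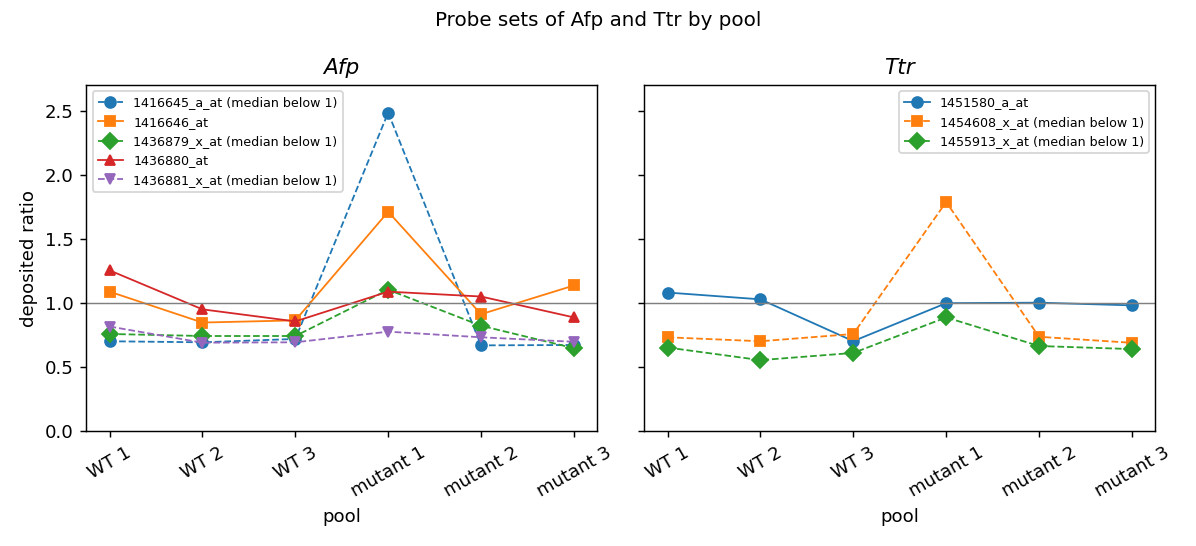
Deposited ratio (vertical axis, linear) of each probe set of Afp (left) and Ttr (right) in the 6 pools; lines join the points of 1 probe set, and dashed lines mark probe sets whose median lies below 1. In mutant pool 1 the Afp probe set 1416645_a_at reaches 2.48 and the Ttr probe set 1454608_x_at reaches 1.79, while 1436880_at, 1436881_x_at and 1451580_a_at have their highest point in wild-type pool 1.

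Mutant pool 1 was also the pool with the heart muscle signal, where 17 of 20 markers passed the same bound and the gaps ran from 0.29 to 4.26. Of the 33 genes that stood out in this pool 17 were on the heart muscle list and 2 were Afp and Ttr. Primitive blood markers were highest in mutant pool 1 for 8 of 16, against 1473 of all 12393 genes, and in wild-type pool 3 for 5 of 16. Their median was 0.09 in mutant pool 1 and 0.08 in wild-type pool 3, and 0 stood out as high in 1 pool by the bound. The part of the heart muscle signal in the Afp and Ttr values was not tested.

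Alb, the gene of serum albumin, is the neighbour and relative of Afp and did not share its pattern. Its ratio was 1.05, 0.999 and 0.715 in the wild type against 0.976, 1.001 and 1.01 in the mutant. The low value was that of wild-type pool 3, and the remaining pools were level. The windows below, from the RefSeq promoter table of build GRCm38.p6, hold the 250 bases before the annotated start of each gene and are shown to compare this pair and Fgb, the gene with the smallest p among those described here. Capitals mark matches on either strand to the HNF1 core GTTAAT, to the FOXA core TGTTTAC and its variant TGTTTGC, to the GATA site AGATAA and its variant TGATAA, to the grainyhead-like core AACNNGTT, to the GC box GGGCGG and to the TATA box TATAAA.
Afp, chr5:90490464-90490713, plus strand: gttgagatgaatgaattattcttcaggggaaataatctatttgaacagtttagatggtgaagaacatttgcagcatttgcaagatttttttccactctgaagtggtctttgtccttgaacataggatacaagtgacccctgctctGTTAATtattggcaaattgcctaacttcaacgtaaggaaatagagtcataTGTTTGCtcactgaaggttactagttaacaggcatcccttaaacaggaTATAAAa
Alb, chr5:90460620-90460869, plus strand: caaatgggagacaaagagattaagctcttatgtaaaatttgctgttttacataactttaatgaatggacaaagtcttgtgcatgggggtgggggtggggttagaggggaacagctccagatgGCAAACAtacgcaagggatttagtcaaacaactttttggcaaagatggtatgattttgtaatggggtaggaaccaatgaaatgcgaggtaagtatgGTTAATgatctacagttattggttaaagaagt
Fgb, chr3:83049864-83050113, minus strand: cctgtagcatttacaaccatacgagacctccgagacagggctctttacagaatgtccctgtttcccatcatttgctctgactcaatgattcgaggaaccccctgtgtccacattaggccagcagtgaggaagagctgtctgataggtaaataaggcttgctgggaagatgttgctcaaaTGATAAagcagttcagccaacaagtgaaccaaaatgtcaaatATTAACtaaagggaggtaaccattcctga
Afp held an HNF1 core at -105 to -100, a FOXA match at -55 to -49 and the letters TATAAA at -7 to -2, counted back from the annotated start. Alb held an HNF1 core at -32 to -27 and a FOXA match, read on the opposite strand, at -128 to -122. Fgb held an HNF1 core on the opposite strand at -29 to -24 and a GATA match at -71 to -66. No 2 of these motifs overlapped in the windows shown.

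Windows were listed for 29 of the 37 genes, 37 windows in all. A gene with several windows was counted if any of them held the letters. The shares beside the gene counts are of single windows, so the 2 are not on the same footing. The HNF1 core stood in the windows of 5 of 12 secreted protein genes (Fga, Fgb, Alb, Afp and Apoc2) and of 0 of 10 epithelium genes, against 6.43% of all 32851 windows. The FOXA letters stood in 6 of 12 secreted protein genes (Apoa2, Alb, Afp, Apoa1, Apob and Rbp4) and in 0 of 10 epithelium genes, against 7.29%. The GC box showed the opposite split between these groups, with 1 of 12 secreted protein genes (Rbp4) and 6 of 10 epithelium genes (Grhl3, Cldn4, Cldn7, Tfap2a, Cldn6 and Epcam), against 32.7%. The grainyhead-like letters stood in 0 of the 37 windows (3.64% of all windows). The GATA letters stood in 2 of 12 and 2 of 10 (16.6%), and the TATA box in 4 of 12 and 0 of 10 (12.4%). Of 4 endoderm factors with a window, 4 held the GC box, 2 the HNF1 core and 1 the FOXA letters, so they did not follow the secreted proteins in the GC box. Of 3 uptake genes, 1 held the GC box, 1 the HNF1 core and 0 the FOXA letters. All of these are counts of letters and say nothing of binding.

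The fibrinogen chains, clotting proteins encoded by a cluster of neighbouring genes, included the gene with the clearest separation of genotypes. Fgb, the beta chain, stood at -0.05, -0.21 and -0.20 in the wild type and at 0.24, 0.05 and 0.20 in the mutant. All mutant pools lay above all wild-type pools, with a log2 difference of 0.32 (SE 0.10, 1.25-fold) and a limma adjusted p = 1.0 over all genes. Leaving out 1 pool gave differences from 0.28 to 0.37. Fgg, the gamma chain, stood at -0.02, -0.01 and -0.22 in the wild type and at 0.08, 0.08 and 0.01 in the mutant. Its genotypes did not overlap either, though its log2 difference of 0.14 (SE 0.10) was 0.07 without wild-type pool 3. Fga, the alpha chain, whose 1 probe set had a median below 1, stood at -0.02, -0.40 and -0.50 in the wild type and at -0.42, -0.19 and -0.46 in the mutant. It overlapped widely, and its log2 difference was -0.05 (SE 0.14).

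The apolipoproteins, which package lipid for export, had overlapping genotypes for every member measured. Apoa1 (0.11), Apom (0.11), Apoc2 (0.09), Apoa2 (0.05) and Apob (0.01) had positive log2 differences and Apoa4 had -0.09, with SEs from 0.10 to 0.14. Apob, the structural protein of large lipoproteins, ranged most over the pools, from -0.24 in wild-type pool 3 to 0.23 in wild-type pool 1. Apoa1, the main protein of high-density lipoprotein, was read by 4 probe sets, and without its _x_at probe sets its difference was -0.02. Rbp4, which carries retinol, had a difference of -0.0012 (SE 0.12), with 0.08, 0.05 and -0.28 in the wild type against -0.02, -0.16 and 0.02 in the mutant. Its low value in wild-type pool 3 followed the other secreted proteins.

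The uptake machinery of visceral endoderm was measured by 3 genes. Amn encodes amnionless, which anchors the scavenger receptor cubilin, encoded by Cubn, at the cell surface, and Dab2 encodes an endocytic adaptor. Amn stood at -0.09, -0.04 and -0.21 in the wild type and at 0.20, 0.04 and 0.07 in the mutant, without overlap, for a log2 difference of 0.22 (SE 0.10). Every mutant pool lay above every wild-type pool, and mutant pool 1 was the highest. Cubn stood at 0.07, -0.07 and -0.04 against -0.16, -0.01 and 0.03, a difference of -0.03 (SE 0.10). Dab2 stood at -0.18, -0.03 and 0.02 against 0.09, -0.01 and 0.05, a difference of 0.11 (SE 0.10). The low wild-type pool 1 came from its probe set 1420498_a_at, with a ratio of 0.713 there, while 1430604_a_at ran from 0.933 to 1.01 over all pools.

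Fgb, Fgg and Amn were the 3 of 35 genes with all mutant pools above all wild-type pools, against 3.11% of all genes. Cldn6 was the 1 of 35 with all mutant pools below, against 1.84%. Ttr and Fgb were the 2 of 35 with a difference of at least 0.25 in size, against 3.07%, and Cldn7, at -0.248, lay just short of it.

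A further list of visceral yolk sac endoderm markers, other than the 35 genes, leaned the same way by a smaller median. Of 38 listed 32 were measured, and 21 were higher and 11 lower by sign. Their median log2 difference was 0.04, and 0 passed the test. Wild-type pool 3 was the lowest pool for 16 of the 32, with a pool median of -0.12, while mutant pool 1 had -0.01. Mutant pool 1 was the highest pool for 10 of the 32, and 0 of the 32 stood out as high in 1 pool by the bound of 0.5. As low in 1 pool 1 of the 32 stood out, Cdx2 at -1.58 in mutant pool 2. Gata4, an endoderm and heart transcription factor, had the largest gap of mutant pool 1 on this list, at 0.45 with the next pool at 0.02. Its relative Gata6 was highest in mutant pool 3, at 0.39. Trophoblast and placenta markers, 11 of 15 measured, had wild-type pool medians of 0.0029, -0.02 and -0.14 against -0.08, -0.04 and -0.05 in the mutant.

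The endoderm factors did not separate the genotypes. Of 5 measured, 4 were higher and 1 lower by sign. Their median log2 difference was 0.05, with 0 past the test, and leaving out wild-type pools 1, 2 or 3 in turn gave -0.01, 0.12 or -0.02. Hnf4a, the nuclear receptor that drives secreted protein genes in yolk sac and liver, stood at -0.03, -0.13 and -0.38 in the wild type and at -0.04, -0.13 and -0.20 in the mutant. It was lowest in wild-type pool 3, as most of the secreted proteins were, and its probe set 1427000_at had a median below 1. Its log2 difference was 0.05 (SE 0.12).

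Foxa1, Foxa2 and Foxa3 encode forkhead factors that open chromatin in endoderm, and Foxa2 is also a gene of notochord and floor plate. Foxa1 stood at -0.33, 0.23 and 0.04 in the wild type and at -0.04, 0.26 and -0.13 in the mutant. Foxa2 stood at -0.26, -0.01 and 0.01 in the wild type and at 0.02, 0.09 and -0.15 in the mutant. Both were lowest in wild-type pool 1 and highest in mutant pool 2. Foxa3 had another order, from -0.24 in wild-type pool 3 to 0.30 in mutant pool 3. The differences were 0.05 (SE 0.16), 0.08 (SE 0.12) and 0.08 (SE 0.15) for Foxa1, Foxa2 and Foxa3. Shh, the hedgehog ligand of gut endoderm, notochord and floor plate, stood at -0.18, 0.09 and 0.11 against -0.09, -0.34 and 0.23, and its difference was -0.07 (SE 0.15). Mutant pools thus held both its lowest and its highest value. Of the 30 listed markers of gut endoderm and notochord other than these, 26 were measured, and 14 were higher and 12 lower by sign. Their differences had a log2 median of 0.02, and 0 passed the test. The marker lists share genes, so their counts are not separate. Sox17, Gata4, Gata6, Ihh and Cdx2 were also on the yolk sac list. Cdh1, Cldn3 and Krt7 were also on the list of surface ectoderm and epithelium below.

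Epithelium genes were balanced between genotypes. Of 14 measured, 7 were higher and 7 lower by sign. Their differences had a log2 median of -0.02, and 0 passed the test. Leaving out wild-type pools 1, 2 or 3 in turn gave medians of -0.11, -0.04 or -0.04, and leaving out mutant pools 1, 2 or 3 gave 0.01, -0.0081 or -0.09. By sign the claudins and Epcam were lower in the mutant and the 5 keratins were higher. Krt8, Krt18, Krt19 and Krt14 changed sign under 2 or 3 of the alternatives given below, while Krt5, the claudins and Epcam kept theirs. Krt18 changed sign only in fits without 1 pool, and Krt8, Krt19 and Krt14 also did so in at least 1 such fit.

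The claudins, which seal tight junctions, had lower mutant values by sign. Cldn6, an early embryonic claudin, stood at 0.14, 0.20 and 0.01 in the wild type and at -0.11, -0.06 and -0.01 in the mutant, a log2 difference of -0.18 (SE 0.10). Its highest mutant pool and lowest wild-type pool lay close together. Cldn7 stood at -0.11, 0.11 and 0.48 in the wild type and at -0.22, -0.32 and 0.27 in the mutant, a difference of -0.248 (SE 0.18). Its genotypes overlapped, since pool 3 of each genotype was high. Cldn4 had a difference of -0.13 (SE 0.12), with mutant pool 1 the lowest at -0.30. Epcam, an adhesion molecule of most embryonic epithelia, stood at -0.07, 0.07 and 0.29 against -0.18, -0.09 and 0.21, a difference of -0.11 (SE 0.14), with the same order of pools in both genotypes.

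The simple keratins form the filaments of single-layered epithelia, and Krt8 and Krt18 are neighbours whose products pair. Krt8 stood at -0.30, -0.05 and 0.08 in the wild type and at -0.31, 0.13 and 0.10 in the mutant. Krt18 stood at -0.45, 0.01 and 0.33 in the wild type and at -0.28, -0.01 and 0.22 in the mutant. Krt19 stood at -0.54, 0.09 and 0.18 in the wild type and at -0.11, -0.08 and 0.08 in the mutant. All 3 were low in the first pool of each genotype, below the other 4 pools. These were the 3 of 35 genes with that pattern, a smaller share than the 15.4% of all genes, so the pattern was not particular to this list. The genotype differences were 0.06 (SE 0.15), 0.01 (SE 0.19) and 0.05 (SE 0.17) for Krt8, Krt18 and Krt19. Over Krt8, Krt18, Krt19, Epcam and Cldn7, a set put together after their values were seen, the wild-type pool medians were -0.30, 0.07 and 0.29 against -0.22, -0.08 and 0.21 in the mutant. The median range over the 6 pools was 0.40 for the 35 genes and 0.38 for all genes.

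**Figure D4:**
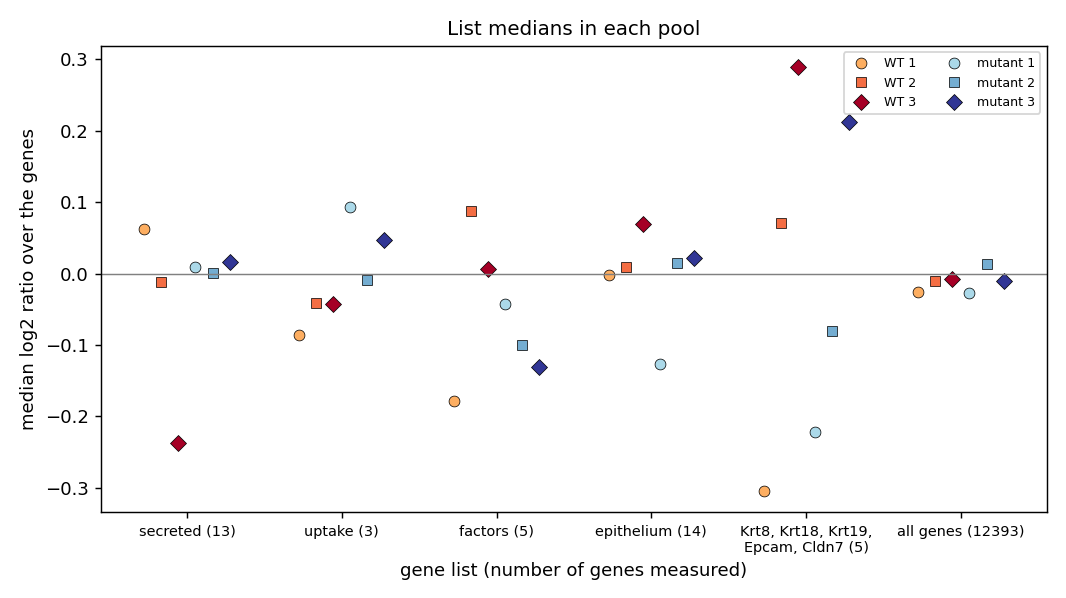
Median log2 ratio over the genes of each list in each of the 6 pools (warm colours wild type, blue mutant, shape the pool number), with the number of genes measured under each list. The secreted proteins are low in wild-type pool 3 (-0.24). The simple keratins with Epcam and Cldn7 were put together after their values were seen. Their medians are low in pool 1 and high in pool 3 of both genotypes.

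The remaining epithelium genes shared no order of pools. Krt5 and Krt14, the paired keratins of basal cells, were lowest in wild-type pool 3, as were 32.6% of all genes, at -0.24 and -0.25, and had differences of 0.17 (SE 0.12) and 0.04 (SE 0.12). Grhl2, a grainyhead-like factor that maintains epithelial junctions, was lowest there too at -0.25 (difference 0.05, SE 0.12). Esrp1, which sets epithelial splicing, was instead highest in wild-type pool 3 at 0.35, and its difference was -0.17 (SE 0.12). Trp63, the factor of basal epithelium, had a difference of -0.05 (SE 0.10). Its probe set 1418158_at gave a ratio of 1.46 in wild-type pool 3 while 1451876_a_at and 1452027_a_at gave 0.894 and 0.914 there. Tfap2a, a factor of surface ectoderm and neural crest, had a difference of 0.09 (SE 0.11), with wild-type pool 2 the lowest at -0.24. Spink1, a trypsin inhibitor made in gut epithelium, varied least, from -0.10 to 0.06 (difference -0.09, SE 0.10).

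Of the 43 further markers of surface ectoderm and epithelium 40 were measured, with 17 higher and 23 lower by sign. Their differences had a log2 median of -0.01, and 0 passed the test. Wild-type pool 3 was the highest pool for 13 of the 40 and the lowest for 11, and the list's median there was 0.03. The extremes in that pool, chosen after their values were seen, ran both ways, and the largest in size were high. Cdh1, the epithelial cadherin, stood highest at 0.84, followed by Bnc1 at 0.62, Dsp at 0.55, Msx2 at 0.48 and Perp at 0.45. On the low side Ehf stood at -0.50, though it lay between -0.55 and -0.31 in every pool. Itgb4, an integrin chain of basal epithelium, stood at -0.47 and Ovol2, an epithelial transcription factor, at -0.35.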

How the data were processed

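The authors deposited 1 linear ratio per probe set and array. Read from the values, these are relative to a probe set median, which equals 1 (tolerance 0.0011) for 92.8% of 22626 probe sets, lies below 1 for 1640 and exceeds it for 0. The submitters' processing notes name RMA and MAS5 but give neither a role. Other steps are not stated. The 64 control probe sets were left out. All probe sets with 1 gene symbol, updated by Entrez ID through a RefSeq table of GRCm38.p6, were averaged per gene as log2 ratios with no offset. Genotypes were compared over 12393 genes by lmFit and eBayes of limma 3.58.1 under R 4.3.3 (two-sided, genotype alone), adjusted by Benjamini-Hochberg over all genes at 0.05. The test was run on simulated data first. An exact permutation test of 3 against 3 pools cannot go below 0.10 and was not used. Genes were given pool by pool where 1 pool stood 0.5 apart from the next, genotypes did not overlap, or the difference reached 0.25, and others where they show a group's pattern. The genes and lists were chosen with earlier results of these data known. Precision is limited by the number of arrays. Alternatives were other normalization, offsets, probe set rules, variances, array weights, a replicate block and leaving out each pool. Plots used matplotlib 3.10.9 in Python 3.11.15.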

Additional observations from a re-analysis of the deposited data

How the results depend on the processing

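No gene of the 35 passed the test under any of the 17 alternatives. The genes called over all genes were 2 with quantile normalization, with centred arrays, without probe sets under the floor and with trend and robust variances, 3 with array weights, and 1 to 2 when 1 pool was left out. The count of genes standing out as high in 1 pool, 2 as reported, was 0 with quantile normalization or without probe sets under the floor, 1 with the highest probe set of a gene and 1 without _x_at and _s_at probe sets (the latter chosen after seeing the data), and 0 to 2 when 1 pool was left out. That count was also 0 with log2(value + 1) and log2(value + 0.25), and the uptake median was 0.0524 with log2(value + 1). An offset shrinks every log2 difference of ratios near 1 while the bound stays fixed, so these values say nothing of stability. The uptake median was 0.0567 with probe sets taken singly and 0.0475 to 0.15 without 1 pool, and the endoderm factor median was -0.0925 with array weights and -0.02 to 0.12 without 1 pool. The epithelium median ran from -0.11 to 0.0115 and the secreted protein median from 0.03 to 0.17 without 1 pool. With array weights the secreted protein median was 0.028, where wild-type pool 3 had a weight of 0.209 and wild-type pool 2 of 5.24. Of the 35 genes 19 changed sign under at least 1 alternative. Array weights were estimated gene by gene because the default estimate did not converge. With a replicate block the differences are the same by construction in this balanced design (secreted median 0.11) and only their errors can move: 1 gene was called over all genes and 0 of the 35. Same-numbered pools correlated in their deviations at 0.19, 0.00 and 0.21 for pools 1, 2 and 3, so the numbers do not show a pairing in every pair.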

Other observations

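Trf, the gene of transferrin, was read only by probe set 1425546_a_at, which the annotation also gives to Srprb. Its wild-type ratios were 0.996, 0.995 and 1.004 and its mutant ratios 1.10, 0.986 and 1.08, and it names neither gene. Probe set 1427841_at, shared by Krt17 and Krt14, ran from 0.953 to 1.06 over the 6 pools, a log2 difference of -0.0032 between genotypes.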
